A study of Mus musculus with 27 samples.

Results

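The 6 mature strands of the microRNAs (miRNAs) miR-192, miR-194 and miR-122 were followed through small-RNA sequencing of the mouse suprachiasmatic nucleus (SCN), the seat of the central circadian clock. They were every miRNA named miR-192-, miR-194- or miR-122- in the deposited tables, 6 of 844 miRNAs listed in at least 1 of 27 libraries: miR-192-5p, miR-192-3p, miR-194-5p, miR-194-2-3p, miR-122-5p and miR-122-3p. All libraries came from C57BL/6 mice, with no genetic change named. The tissue set held SCN, hypothalamus and cortex, 2 libraries each. The neuron set held SCN neurons of 3 types (AVP, VIP and CCK), 2 libraries each, named for vasopressin, vasoactive intestinal peptide and cholecystokinin. The CT18 set (circadian time 18 h) held SCN labelled LP and SCN labelled CTRL, 2 libraries each, in a series whose design speaks of light-response miRNAs; what LP stands for is not spelled out. The time course held 1 SCN library every 4 h at 11 times, ZT2 to ZT42 (zeitgeber time, hours from lights on). The labels give neither the age of the mice nor whether replicates came from different ones, so a p-value measures only the spread between these libraries, which may be technical. How the neurons were collected is not given in the sources used here.

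miR-192 and miR-194 are made together from shared primary transcripts. They are known as miRNAs of gut, liver and kidney epithelium, where hepatocyte nuclear factors and p53 drive their genes, and in cultured cells they have been reported to repress the Period genes of the clock. miR-122 is the dominant miRNA of hepatocytes, where it acts in cholesterol and lipid metabolism and transcription of its precursor follows the clock. None of them is a classical brain miRNA.

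The mature sequences show which reads can be told apart. They are from RefSeq (GRCm38.p6), printed 5′ to 3′ with the seed, bases 2 to 8, in capitals; the seed is the stretch that pairs with target mRNAs.

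miR-192-5p: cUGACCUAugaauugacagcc
miR-215-5p: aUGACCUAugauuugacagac
miR-194-5p: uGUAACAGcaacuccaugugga
miR-194-2-3p: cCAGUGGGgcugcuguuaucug
miR-194-1-3p: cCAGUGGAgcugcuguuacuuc

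miR-192-5p shares the seed UGACCUA with miR-215-5p alone among RefSeq mouse miRNAs, and differs from it at 3 positions counted from the 5′ end, C1A, A12U and C20A, all outside the seed. miR-194-5p is the 1 RefSeq miRNA with the seed GUAACAG. It is encoded by a pair of identical copies, at chr1:185313325-185313346 and chr19:6264658-6264679, both on the plus strand, so its reads cannot be assigned to a locus. The 3p arms of the copies differ from each other at 4 positions (A8G, C19U, U20C and C22G, the chromosome 1 arm first), 1 of them in the seed.

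On chromosome 19 the hairpins Mir194-2 (chr19:6264643-6264728) and Mir192 (chr19:6264844-6264932) lie 115 bases apart on the plus strand, and the GENCODE annotation places no other gene over either. Both are shown with the mature arms in capitals, because they carry 4 of the 6 miRNAs described.

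Mir194-2: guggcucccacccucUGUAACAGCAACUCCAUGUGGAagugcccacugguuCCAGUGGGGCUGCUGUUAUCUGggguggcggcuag
Mir192: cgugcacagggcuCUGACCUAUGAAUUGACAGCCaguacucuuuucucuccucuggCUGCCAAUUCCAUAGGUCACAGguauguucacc

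On chromosome 1 Mir194-1 (chr1:185313319-185313385) and Mir215 (chr1:185313581-185313692) lie 195 bases apart. Mir194-1 is in an intron and Mir215 in an exon of the antisense lncRNA gene 2010103J01Rik, and both lie within Iars2, a tRNA synthetase gene on the opposite strand. Over all libraries miR-192-5p had 26578 reads and miR-215-5p, of the chromosome 1 pair, 37 reads in 11 libraries, a ratio of 718.

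The 5p arm made up nearly all reads of each hairpin. miR-192-5p was listed in all 27 libraries, while miR-192-3p had 1 read, in 1 cortex library, or 0.00376% of the reads of both arms. miR-194-5p had 5471 reads in 23 libraries. miR-194-2-3p had 33 reads in 12 libraries, 0.600% of both arms (exact 95% interval 0.413 to 0.841%), although miR-194-5p reads from chromosome 1 are counted in that total too. miR-122-5p had 1239 reads in 24 libraries, and miR-122-3p 1 read, in the ZT2 library. Levels of the 3p arms stayed at or below 2.2 CPM, and the results below are therefore about the 3 5p arms.

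Levels are given in CPM, which is close to reads per 1000000 listed miRNA reads of a library. Libraries held 469808 to 5133920 recovered reads and 215 to 635 listed miRNAs, and the AVP and CCK libraries were the shallowest. Intervals and floors cover counting error only. Differences between replicates exceeded counting error in each group (chi-square per degree of freedom 13.8 in CCK to 554.5 in VIP). The labelled tissues were read against marker miRNAs. The hypothalamus-enriched miR-7a-5p and miR-7b-5p summed to 48276 to 51562 CPM in SCN of the tissue set and 79929 to 81358 CPM in hypothalamus, against 4232 to 5295 CPM in cortex. The CT18 libraries stood apart: the same sum was 2034 to 5673 CPM there, against 11940 to 52766 CPM in the 13 other SCN tissue libraries. In AVP, VIP and CCK neurons the neuronal miR-124-3p, miR-9-5p and miR-128-3p summed to 2867 to 4011, 13107 to 17507 and 10632 to 12202 CPM. These sums lay below the 32958 to 38301 CPM of SCN tissue. Markers of white cells and platelets summed to 2 CPM at most in the neurons. Red-cell markers (miR-144 strands, miR-451a and miR-486-5p) summed to 2107 to 2164, 943 to 1170 and 980 to 1015 CPM. That was above the 486 to 583 CPM of SCN in the tissue set, while the time course had 904 to 1402 CPM. In AVP and CCK neurons miR-486-5p made up the whole red-cell sum, with 3 of the 4 markers at 0.

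In the tissue set the cluster mates and miR-122 differed in opposite directions. miR-192-5p and miR-194-5p were lower in SCN than in hypothalamus and in cortex, while miR-122-5p was higher in SCN than in cortex. The p-values here are from limma on log2(deposited value + 1), adjusted by Benjamini-Hochberg over all miRNAs tested, with a threshold of 0.05, and log2 fold changes are on that scale; 3 of the 6 members, the 5p arms, passed the filter on low values.

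miR-192-5p measured 274.4 and 209.8 CPM in SCN, against 767 and 732.9 CPM in hypothalamus and 666.4 and 629.9 CPM in cortex. Both SCN libraries lay below all 4 others, and miR-192-5p ranked 127 and 142 among the miRNAs of the SCN libraries, against 81 in both hypothalamus libraries. It fell 3.10-fold in SCN relative to hypothalamus (log2 fold change -1.64 ± 0.15 SE, adjusted p = 1.28e-05, n = 2 each, limma). Relative to cortex it fell 2.68-fold (-1.43 ± 0.15, adjusted p = 1.45e-05, limma).

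miR-194-5p measured 84.6 and 89.5 CPM in SCN, against 175.3 and 164.9 CPM in hypothalamus and 186.3 and 155.1 CPM in cortex. Again both SCN libraries lay below all 4 others, while hypothalamus and cortex overlapped. It fell 1.95-fold in SCN relative to hypothalamus (-0.97 ± 0.15, adjusted p = 0.000429, limma) and 1.96-fold relative to cortex (-0.97 ± 0.15, adjusted p = 0.000293, limma).

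miR-122-5p, at far lower levels, measured 21.8 and 25.9 CPM in SCN (49 and 93 reads), 17.9 and 13.9 CPM in hypothalamus, and 7.5 and 4.6 CPM in cortex (19 and 9 reads). The 3 tissues did not overlap, and their order was SCN, hypothalamus, cortex. SCN libraries of the time course spanned 8 to 46.8 CPM, reaching below and above hypothalamus. The place of SCN above hypothalamus thus holds for the tissue set only. miR-122-5p rose 3.94-fold in SCN relative to cortex (2.0 ± 0.37, adjusted p = 0.000831, limma). The difference from hypothalamus did not pass (1.5-fold, log2 0.59 with a 95% interval of -0.26 to 1.43, adjusted p = 0.184, limma). That difference passed under quantile normalization alone among the alternatives tried (adjusted p = 0.0413; range over the other alternatives 0.0754 to 0.521).

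Hypothalamus and cortex differed in miR-122-5p, which rose 2.63-fold in hypothalamus (1.41 ± 0.37, adjusted p = 0.00992, limma). That call rests on the scaling and on 1 library: it was lost under median-ratio scaling (log2 0.99, adjusted p = 0.0522), under quantile normalization (0.50, adjusted p = 0.289) and without hypothalamus replicate 1 (1.23, adjusted p = 0.0676). miR-192-5p, at 750.0 ± 24.1 CPM in hypothalamus and 648 ± 25.8 CPM in cortex (SD, n = 2 each), did not pass (log2 0.21, interval -0.12 to 0.55, adjusted p = 0.241, limma). Nor did miR-194-5p (0.00, interval -0.35 to 0.35, adjusted p = 0.999, limma), and the sign of both estimates turned under median-ratio scaling.

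**Figure D1:**
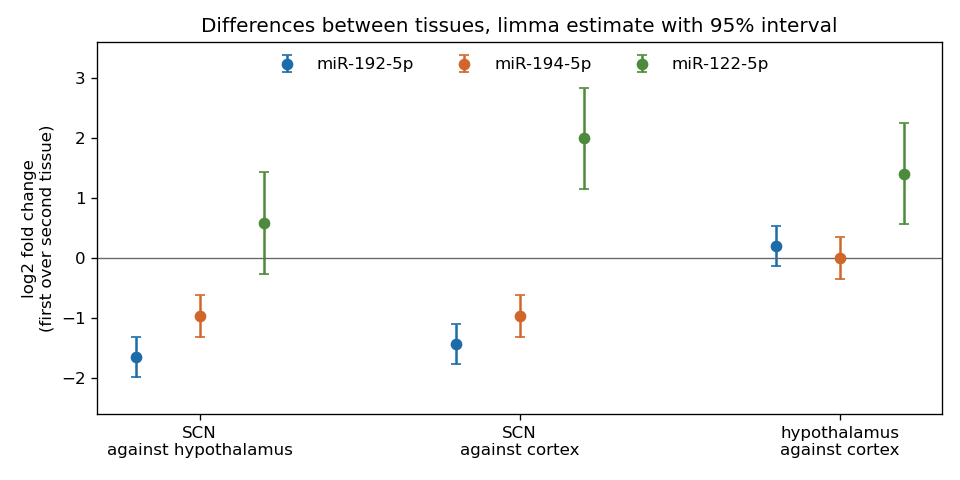
Log2 fold change (y axis, first tissue over second, limma estimate) with its 95% interval for miR-192-5p, miR-194-5p and miR-122-5p in the 3 tissue comparisons. The intervals of miR-192-5p and miR-194-5p lie below 0 in both SCN comparisons, those of miR-122-5p above 0 against cortex, and the others of miR-192-5p and miR-194-5p span 0.

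Differences between these tissues were the rule. Between SCN and hypothalamus 70.9% of 378 miRNAs passed (42.9% lower and 28.0% higher in SCN), between SCN and cortex 80.2% (38.9% lower and 41.3% higher in SCN) and between hypothalamus and cortex 58.2% (16.4% lower and 41.8% higher in hypothalamus), beside 2, 3 and 1 of the 3 members. Groups did not overlap for 87.3%, 90.2% and 83.9% of miRNAs in the same comparisons, beside 3, 3 and 2 members. The median log2 fold change of all miRNAs between SCN and hypothalamus was -0.29.

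Markers of other cells differed between the same tissues. The 5 vessel-wall miRNAs (miR-126, miR-143 and miR-145 strands) summed to 3910 to 3933 CPM in SCN, 11100 to 11818 CPM in hypothalamus and 11013 to 11550 CPM in cortex, and all 5 fell in SCN against both. Muscle miRNAs summed to 42.6 to 67.1 CPM in SCN, 311 to 314 CPM in hypothalamus and 397 to 459 CPM in cortex. The epithelial list of the miR-200 family and miR-375-3p went the other way, with 658 to 777 CPM in SCN, 191.7 to 266 CPM in hypothalamus and 63.1 to 114 CPM in cortex. Of its 6 members 4 rose in SCN against hypothalamus and 5 against cortex, and the others did not pass. miR-141-3p, averaging 25 CPM in SCN, 27.85 CPM in hypothalamus and 12.05 CPM in cortex, passed against neither. The choroid plexus and ciliated-cell list ran in the order of miR-122-5p, with 8642 to 8889 CPM in SCN, 7239 to 7445 CPM in hypothalamus and 1175 to 1330 CPM in cortex, and all 4 of its members tested rose in SCN against cortex; against hypothalamus 2 rose, 1 fell and 1 did not pass. Of the 4 red-cell miRNAs 3 fell and 1 rose in SCN against both tissues. miR-144-3p averaged 2.90 CPM in SCN, 121 CPM in hypothalamus and 153 CPM in cortex, miR-451a 29.7, 245 and 238 CPM in the same order, and miR-144-5p fell 6.08-fold and 6.33-fold. miR-486-5p, the most abundant in SCN, averaged 499 CPM in SCN, 332.5 CPM in hypothalamus and 166 CPM in cortex, so the sums of the list overlapped (486 to 583, 549 to 888 and 513 to 643 CPM). The SCN libraries of the time course did not share the high epithelial and choroid plexus sums. They had 25 to 150.6 CPM for the epithelial list and 3650 to 6083 CPM for the choroid plexus and ciliated-cell list. Both ranges lay below hypothalamus, so the order of these lists holds for SCN of the tissue set only. The part of all these lists in the differences of the members was not tested. In such bulk samples fewer cells of a type and less RNA per cell cannot be told apart.

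Other miRNAs of liver, gut and kidney epithelium did not move as a block. Of 22 such miRNAs listed, 17 were tested; in SCN against hypothalamus 5 rose, 7 fell and 5 did not pass (median log2 -0.10), and against cortex 7 rose, 5 fell and 5 did not pass (median 0.47, beside 0.06 for all miRNAs). miR-21a-5p, widespread in epithelia, fell 6.40-fold against hypothalamus and 5.18-fold against cortex, and miR-30a-5p, abundant in kidney, fell 4.88-fold against cortex. miR-200b-3p and miR-200c-3p, which keep cells epithelial by repressing Zeb factors, rose 5.83-fold and 7.32-fold against hypothalamus and 17.7-fold and 25.1-fold against cortex. Their relatives miR-200a-3p and miR-429-3p rose 5.0-fold and 10.8-fold against cortex, and miR-375-3p, of endocrine cells, rose 6.03-fold. These rises are of SCN in the tissue set. miR-200b-3p and miR-200c-3p averaged 298 and 87.8 CPM there, against 10.4 and 5.84 CPM along the SCN time course. miR-148a-3p, abundant in liver, averaged 2906 CPM in SCN, 7891 CPM in hypothalamus and 2613 CPM in cortex, lower than in hypothalamus (2.72-fold, adjusted p = 7.10e-06) but not different past the threshold from cortex (adjusted p = 0.245, limma). Between hypothalamus and cortex 8 of the 17 rose, 2 fell and 7 did not pass, and miR-429-3p was the 1 past 4-fold (8.65 against 1.90 CPM).

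The neuron libraries separated the cluster mates from each other. miR-192-5p was present in all 6 libraries, and miR-194-5p was listed at 0 in AVP and VIP neurons but present in CCK neurons. The 3p arm of the same hairpin, miR-194-2-3p, had 3 reads (1.0 CPM) in VIP replicate 1 and 0 reads in the other 5 neuron libraries.

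miR-194-5p measured 0 and 0 CPM in AVP neurons and 0 and 0 CPM in VIP neurons, against 68.1 and 115 CPM in CCK neurons (32 and 56 reads). A count of 0 allowed up to 5.60 and 3.31 CPM in the AVP libraries and 1.07 and 1.08 CPM in the VIP libraries (3 reads each), so both CCK libraries lay above every such limit. With 3 reads over the group as the floor, and the CCK mean taken without its error, the level was at least 44.0-fold lower in AVP than in CCK neurons (adjusted p = 0.00524, limma). On the same terms it was at least 170.7-fold lower in VIP than in CCK neurons (adjusted p = 0.00403, limma). miR-194-5p passed the filter on low values through the CCK libraries alone. At 0 in every AVP and VIP library, its own spread came only from the CCK pair, so these p-values add no separate support. The call against AVP was lost under quantile normalization (adjusted p = 0.0507), and leaving out either AVP library gave adjusted p of 0.0194 to 0.0464, and either VIP library 0.0359 to 0.0368. Without either CCK library miR-194-5p no longer passed the filter on low values, so the difference could not be checked on 1 CCK library.

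miR-192-5p measured 195.8 and 448.9 CPM in AVP neurons (105 and 407 reads), 194 and 198.6 CPM in VIP neurons, and 364.3 and 334.8 CPM in CCK neurons. The AVP libraries lay on either side of the CCK libraries, and both VIP libraries lay below both CCK libraries. No pair differed past the threshold: AVP against VIP gave a log2 fold change of 0.59 (interval -0.69 to 1.88, adjusted p = 0.405), AVP against CCK -0.24 (-1.52 to 1.05, adjusted p = 0.823) and VIP against CCK -0.83 (-2.12 to 0.46, adjusted p = 0.299, limma).

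miR-122-5p measured 0 and 0 CPM in AVP neurons, 4.6 and 29.4 CPM in VIP neurons (13 and 82 reads), and 53.2 and 2 CPM in CCK neurons (25 reads and 1 read). Replicates lay far apart within VIP and within CCK neurons, and these types overlapped. None of the 3 differences passed (adjusted p = 0.0627 for AVP against VIP, 0.106 for AVP against CCK and 0.990 for VIP against CCK, limma). The limit that 0 reads allow over both AVP libraries was 2.08 CPM, which is above CCK replicate 2, so any difference from AVP rests on CCK replicate 1, and that from VIP mostly on VIP replicate 2.

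Of 305 miRNAs tested in neurons, 32.8% passed between AVP and VIP (14.8% lower and 18% higher in AVP), 16.7% between AVP and CCK (14.1% lower and 2.62% higher in AVP) and 29.8% between VIP and CCK (21.6% lower and 8.2% higher in VIP), beside 0, 1 and 1 of the 3 members. The counts against CCK depended on both CCK libraries: without CCK replicate 1 the count was 0 for AVP and 2 for VIP, and without CCK replicate 2 it was 0 and 1. Groups did not overlap for 64.6%, 58.0% and 62.6% of miRNAs, beside 1, 2 and 2 members. A listing at 0 in all AVP and VIP libraries with reads in both CCK libraries was seen for 11 of 305 miRNAs (3.61%); miR-194-5p had the second highest CCK level among them, after miR-3059-5p (112.8 CPM). The choroid plexus and ciliated-cell list summed to 83.8 to 290 CPM in AVP, 7564 to 9453 CPM in VIP and 1500 to 1914 CPM in CCK neurons. Nearly all of the VIP sum was miR-204-5p, which averaged 79, 8508 and 1451 CPM in AVP, VIP and CCK. In VIP 4 of its 6 members were at 0. miR-34c-5p was lowest in VIP (108, 0.35 and 224 CPM), and miR-34b-3p was at 0 in AVP and VIP and at 31.7 CPM in CCK. The vessel-wall list summed to 3.3 to 70.8, 59.5 to 81.3 and 138 to 177 CPM. Its 3 members tested did not share that order. In AVP, VIP and CCK, miR-143-3p averaged 1.65, 14.2 and 129.65 CPM, miR-126-3p 0, 55.9 and 6.15 CPM, and miR-126-5p 35.4, 0 and 17.45 CPM. Against CCK 0 of the 3 passed, and in AVP against VIP neurons 1 fell. The part of both lists in the result was not tested.

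9 of the related epithelial miRNAs were tested in neurons. In AVP against CCK neurons 1 rose, 3 fell and 5 did not pass, in VIP against CCK neurons 1 rose, 2 fell and 6 did not pass, and in AVP against VIP neurons 0 rose, 1 fell and 8 did not pass. miR-148a-3p was 5.25-fold lower in AVP and 4.12-fold lower in VIP than in CCK neurons (1159 and 1478 against 6085 CPM). Its passenger strand miR-148a-5p was listed at 0 in AVP and VIP neurons, against 28.2 CPM in CCK neurons. miR-365-3p was listed at 0 in AVP neurons, against 258 CPM in VIP and 42.6 CPM in CCK neurons.

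**Figure D2:**
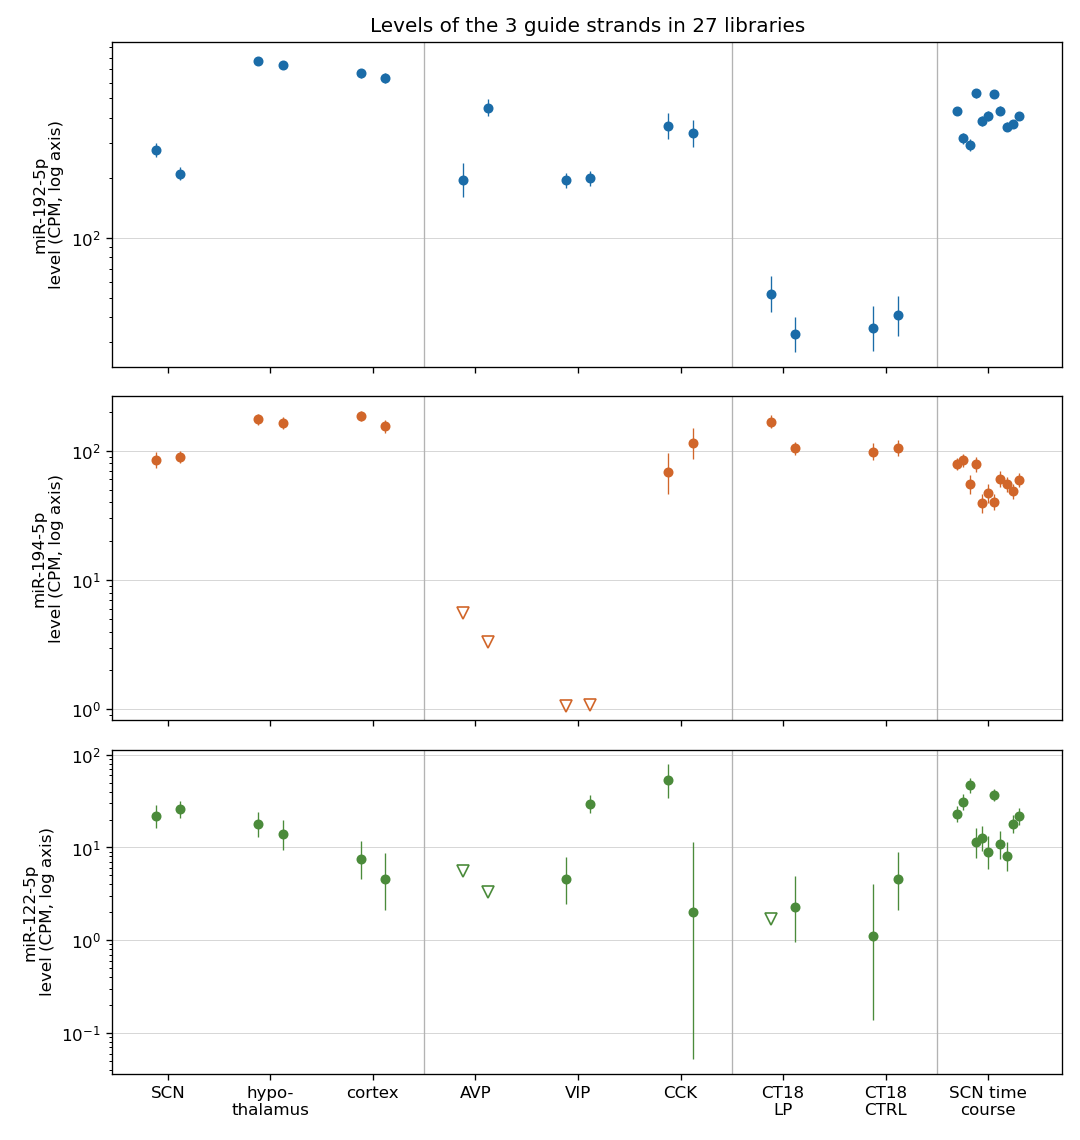
Level (CPM, log axis) of miR-192-5p, miR-194-5p and miR-122-5p in each of the 27 libraries, with the 95% counting interval as a bar and the 3-read limit as an open triangle where a library is at 0. miR-192-5p is at 33 to 52.6 CPM in the 4 CT18 libraries, and miR-194-5p is at 0 in the 4 AVP and VIP libraries.

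At CT18 neither member that could be tested passed between LP and CTRL samples. miR-192-5p measured 52.6 and 33 CPM in LP (93 and 97 reads), against 35.4 and 40.9 CPM in CTRL (63 and 79 reads). The LP libraries lay on either side of the CTRL libraries, and the log2 fold change was 0.13 (interval -0.68 to 0.94, adjusted p = 0.992, limma). miR-194-5p measured 168.2 and 104.8 CPM in LP, against 98.5 and 105.1 CPM in CTRL. LP replicate 1 was the highest of the 4 and LP replicate 2 lay between the CTRL libraries (log2 0.38, interval -0.32 to 1.09, adjusted p = 0.992, limma). miR-122-5p was too low to test, with 0 and 2.3 CPM in LP (0 and 7 reads), against 1.1 and 4.6 CPM in CTRL (2 and 9 reads). By limma 0 of 317 miRNAs passed between LP and CTRL (0.0%), 1 had an unadjusted p under 0.05 (0.315%), and without LP replicate 2 the count was 21. Of the related epithelial list 10 were tested and 0 passed.

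The CT18 libraries differed from every other SCN tissue library in the members. miR-192-5p spanned 33 to 52.6 CPM at CT18, against 210 to 530 CPM in the 13 other SCN tissue libraries, a mean 9.40-fold lower. miR-194-5p spanned 98.5 to 168 CPM at CT18, against 39.4 to 89.5 CPM, a mean 1.89-fold higher. miR-122-5p spanned 0 to 4.6 CPM at CT18, against 8 to 46.8 CPM, a mean 10.6-fold lower. No library overlapped between these sets for any of the 3, and the ZT18 library of the time course, at 384.8, 39.4 and 12.5 CPM, was also outside the CT18 ranges. Among 357 miRNAs the CT18 libraries were all lower for 16.5% and all higher for 14.8%, and were lower with a mean difference over 5 times for 11.2%. The design lists these sets as separate examinations, so set and condition cannot be told apart, and no test was made between them. The vessel-wall sum was lower at CT18, at 929 to 1603 CPM against 3236 to 6331 CPM in the other SCN tissue libraries, as was the miR-7 sum given above. Its members did not all move the same way, by means of LP and CTRL against tissue-set SCN and the time course. miR-126-3p (11.1 and 10.55 against 1151 and 864 CPM) and miR-143-3p (409 and 322 against 2074 and 3210 CPM) were lower. miR-126-5p (303 and 292 against 120 and 99.2 CPM) and miR-145a-3p (129 and 143 against 64.8 and 92.9 CPM) were higher. miR-145a-5p lay between (413.5 and 316 against 511 and 216 CPM). The choroid plexus and ciliated-cell sum was also lower at CT18 (1954 to 2858 against 3650 to 8889 CPM). The muscle sum was lower too (17.9 to 27.9 against 35.3 to 67.1 CPM). In the same order of means, miR-204-5p was lower (1468 and 1344 against 7478 and 3562 CPM). miR-34b-3p was higher (360 and 330.5 against 213 and 175 CPM), as was the muscle miR-133a-3p (21.55 and 22.35 against 19.3 and 15.7 CPM). The related epithelial sum was higher (11057 to 16498 against 6631 to 11033 CPM). Its miR-30a-5p was higher (9561 and 8691 against 4334 and 5909 CPM). Its miR-21a-5p was lower (37.65 and 27 against 205 and 274 CPM). The part of these lists in the differences was not tested.

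The ratio of miR-194-5p to miR-192-5p within a library, which no scaling of the library can change, set the CT18 samples apart. It was 3.20 and 3.18 in LP, against 2.78 and 2.57 in CTRL. In tissue it was 0.308 and 0.427 in SCN, 0.229 and 0.225 in hypothalamus and 0.280 and 0.246 in cortex. In CCK neurons it was 0.187 and 0.344. Along the time course it ran between 0.0763 (ZT26) and 0.267 (ZT6), with a median of 0.145. miR-194-5p thus exceeded miR-192-5p in the 4 CT18 libraries and lay below it in the other 23. This restates the lower miR-192-5p and higher miR-194-5p at CT18 given above. How many other pairs of miRNAs split the same way was not computed.

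**Figure D3:**
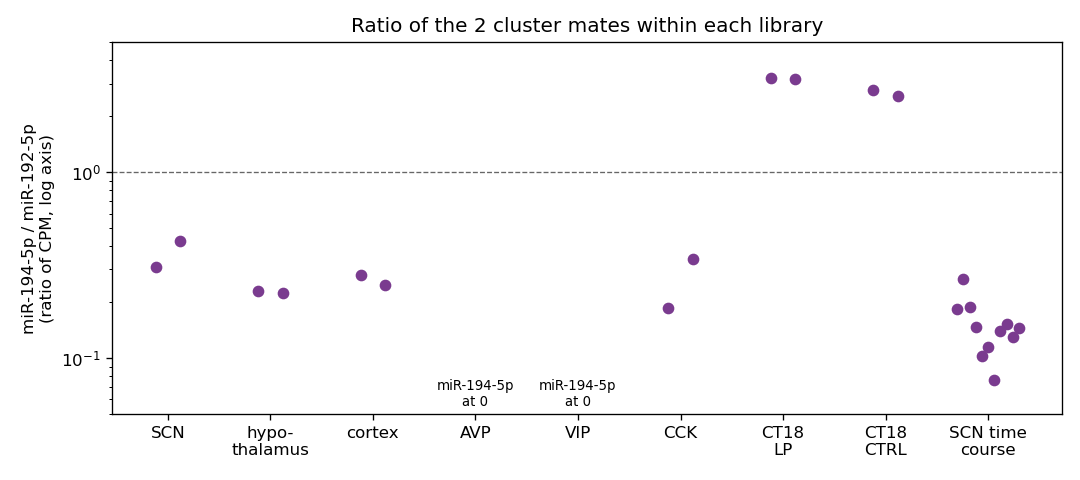
Ratio of miR-194-5p to miR-192-5p (both in CPM, log axis) in each library; the dashed line marks a ratio of 1, and AVP and VIP neurons are marked in words because miR-194-5p was at 0. The LP points (3.20 and 3.18) and CTRL points (2.78 and 2.57) lie above the line, all others below it.

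Along the time course none of the 3 members passed the test for a 24 h rhythm. miR-192-5p measured 430.1 CPM at ZT2, 316.1 at ZT6, 291.7 at ZT10, 530.1 at ZT14, 384.8 at ZT18, 408.5 at ZT22, 528.4 at ZT26, 433 at ZT30, 360 at ZT34, 373.1 at ZT38 and 407.9 at ZT42. ZT14 and ZT26 stood highest and ZT10 lowest, a range of 1.82-fold. Of these, the low recurred and the high at ZT14 did not: ZT34, 24 h after ZT10, was the lowest of ZT26 to ZT42 at 1.23 times the ZT10 level, and ZT38, 24 h after ZT14, was at 0.704 times the ZT14 level. ZT2, 24 h before ZT26, was the second highest of ZT2 to ZT22.

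miR-194-5p measured 78.7 CPM at ZT2, 84.3 at ZT6, 55.3 at ZT10, 78.4 at ZT14, 39.4 at ZT18, 47.1 at ZT22, 40.3 at ZT26, 60.9 at ZT30, 55.2 at ZT34, 48.5 at ZT38 and 59.2 at ZT42. The 3 highest values were at ZT2, ZT6 and ZT14, all in the first day, and the whole range was 2.14-fold. At ZT26 the level was 0.512 times that at ZT2, while that of miR-192-5p was 1.23 times, so the ratio of the cluster mates was lowest there.

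miR-122-5p varied most, with 22.8 CPM at ZT2, 30.9 at ZT6, 46.8 at ZT10, 11.4 at ZT14, 12.5 at ZT18, 9 at ZT22, 37 at ZT26, 10.8 at ZT30, 8 at ZT34, 18 at ZT38 and 21.6 at ZT42. ZT10 was the highest and ZT34, 24 h later, the lowest, 5.85-fold apart.

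Fitted with cosine and sine terms, the amplitude was 0.17 log2 units for miR-192-5p (unadjusted p = 0.533), 0.22 for miR-194-5p (0.494) and 0.35 for miR-122-5p (0.562), each with an adjusted p of 0.95 (limma, 11 libraries). Of 357 miRNAs tested 0 passed (0.0%) and 6 had an unadjusted p under 0.05 (1.68%), and of the related epithelial list 15 were tested and 0 passed. The coefficient of variation was 18.5%, 26.4% and 61.1% for miR-192-5p, miR-194-5p and miR-122-5p. The spread exceeded counting error for each, with chi-square values of 48.1, 15.3 and 25.2 per degree of freedom, but with 1 library per time it cannot be told apart from a difference between libraries.

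**Figure D4:**
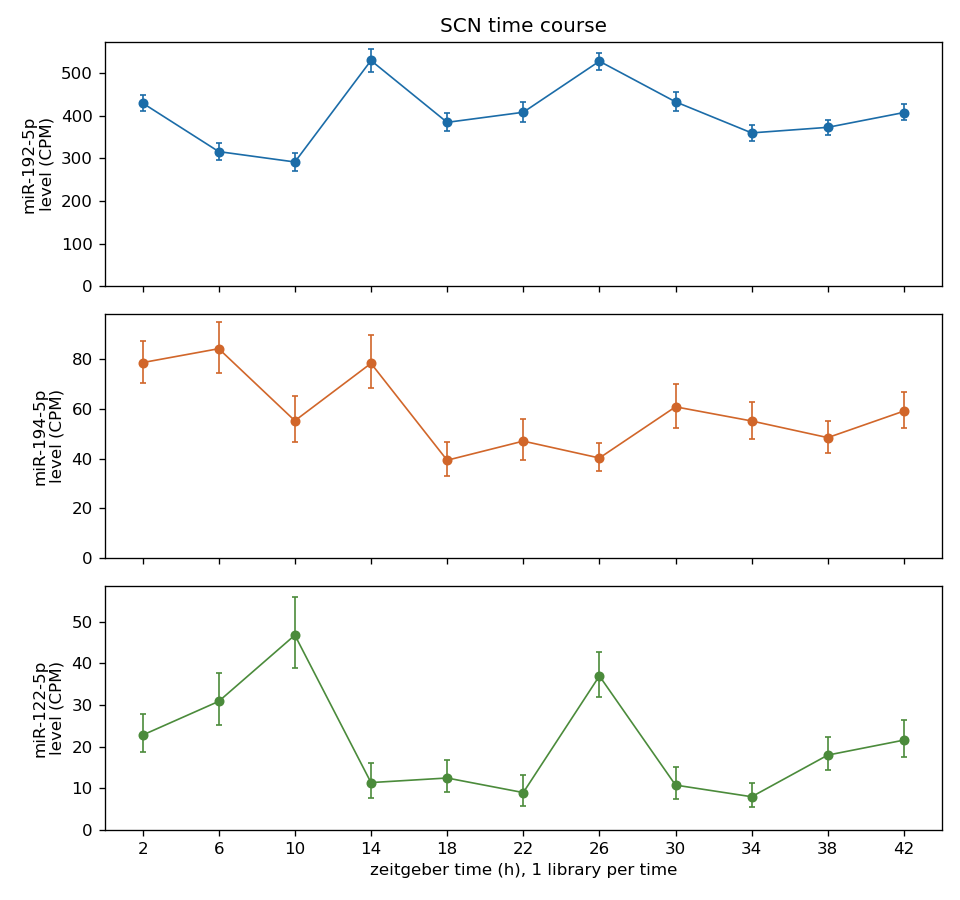
Level (CPM) of miR-192-5p, miR-194-5p and miR-122-5p against zeitgeber time (h), 1 SCN library per time, with the 95% counting interval as a bar. The peaks of miR-122-5p at ZT10 (46.8 CPM) and ZT26 (37 CPM) do not recur 24 h later or earlier, at ZT34 (8 CPM) and ZT2 (22.8 CPM).

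The members' patterns over libraries were also set beside those of other miRNAs, as a description by Spearman's rho over libraries that differ in depth and share tissue and set with others of their kind. Over the 11 time course libraries, among 319 miRNAs with a median of at least 10 CPM, those most like miR-192-5p were miR-101b-3p (0.827), miR-148a-3p (0.809), miR-101a-3p (0.745), miR-27b-3p (0.718) and miR-143-3p (0.673). Those most like miR-194-5p were miR-29a-3p (0.909), miR-574-5p, miR-140-5p, miR-582-5p and miR-221-3p (0.855). Those most like miR-122-5p were let-7c-5p, let-7e-5p, miR-1198-5p (0.918 each), miR-411-3p and miR-342-5p (0.882). The cluster mates miR-192-5p and miR-194-5p had a rho of 0.02 with each other, and miR-122-5p had -0.22 with miR-192-5p and 0.16 with miR-194-5p.

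Over all 27 libraries, which mixes the 4 sets, the nearest to miR-192-5p were miR-21a-5p (0.908), miR-488-3p, miR-541-3p, miR-24-3p and miR-143-3p (0.756), of 314 miRNAs ranked the same way. The nearest to miR-194-5p were let-7i-5p (0.910), miR-329-5p, miR-181b-5p, miR-199a-3p and miR-199b-3p (0.852 each for the last pair, whose entries are near-identical). The nearest to miR-122-5p were miR-676-3p (0.721), miR-7b-5p, miR-204-5p, miR-1224-5p and miR-338-5p (0.600). The cluster mates had a rho of 0.127 with each other over the 27 libraries.

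By mean level, miR-192-5p ran in the order hypothalamus (750.0 CPM), cortex (648 CPM), time course (406 ± 75.2 CPM, SD over 11 times), CCK (350 ± 20.9 CPM), AVP (322 ± 179 CPM), SCN (242 ± 45.7 CPM), VIP (196 ± 3.25 CPM), LP (42.8 ± 13.9 CPM) and CTRL (38.1 ± 3.89 CPM). The time course overlapped with CCK, CCK with AVP, AVP with SCN, and LP with CTRL. The other neighbours did not overlap, and by ratio VIP and LP were the farthest apart. miR-194-5p ran in the order cortex (171 ± 22.1 CPM), hypothalamus (170.1 ± 7.35 CPM), LP (137 ± 44.8 CPM), CTRL (102 ± 4.67 CPM), CCK (91.5 ± 33.2 CPM), SCN (87.1 ± 3.46 CPM), time course (58.8 ± 15.6 CPM) and, at 0, AVP and VIP; each neighbouring pair down to the time course overlapped, apart from SCN and the time course, whose highest value was 84.3 CPM against 84.6 CPM for the lower SCN library. miR-122-5p ran in the order CCK (27.6 ± 36.2 CPM), SCN (23.9 ± 2.90 CPM), time course (20.8 ± 12.7 CPM), VIP (17.0 ± 17.5 CPM), hypothalamus (15.9 ± 2.83 CPM), cortex (6.05 ± 2.05 CPM), CTRL (2.85 CPM), LP (1.15 CPM) and AVP at 0. There the groups from CCK to hypothalamus overlapped with their neighbours, cortex lay below hypothalamus, and CTRL overlapped with LP and at 4.6 CPM equalled the lower cortex library. Positions that cross from one set to another were not tested.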

How the data were processed

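Small RNA was sequenced from 27 mouse samples, grouped by the labels alone. RNA was extracted with Trizol from tissue frozen at once, per the labels' protocols. Per the submitters' processing notes, Bowtie and the builds GRCm38 and mm10 were used, with no version or role given. Each deposited file lists 1 normalized signal for each mature miRNA. From the values, reads were scaled to about 10000000 per library and cut to whole numbers (sums 10004170 to 10021510). Sums above 10000000 after rounding down mean that the divisor was not exactly the sum of the listed reads. CPM is that value divided by 10, and a miRNA that a library does not list was taken as 0. Every value of a library was a whole multiple of 1 step, rounded down, which gave the reads behind it (469808 to 5133920 per library; 95% exact Poisson intervals). These recovered reads were used for depth, intervals and floors (3 reads), and not for tests.

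Tests used limma-trend (limma 3.58.1, R 4.3.3) on log2(value + 1), with 1 model each for the tissues, the neurons, CT18 and the time course (24 h cosine and sine terms, F test on 8 residual degrees of freedom). The filter kept miRNAs that reached 100 (10 CPM) in 2 or more libraries of a model, or 3 in the time course. Tests were two-sided and Benjamini-Hochberg adjusted over all miRNAs. The limma fit, and not the recovery of reads, was tried on simulated data, from which no result here is drawn. Fold changes are ratios of mean CPM.

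The members, the lists, the likeness rule and the settings were chosen with earlier results of these data known. Every member was named. Also named were, per 5p arm, the 5 miRNAs with the highest Spearman rho, and, of the related list, miR-215-5p, miR-148a-3p and those past the threshold by over 4-fold. The miR-200 family and miR-375-3p stand in the related and in the epithelium list and were counted under each. Alternatives were other scalings, filters and pseudocounts, the replicate block and each library left out in turn.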

Additional observations from a re-analysis of the deposited data

How the results depend on the processing

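Of 240 values of members recomputed under an alternative, 223 kept their direction and their side of the threshold, 12 turned direction, 4 lost a call and 1 gained one; of 93 counts, 84 stayed within 1.5 times. Under every alternative that gave a value, the falls of miR-192-5p and miR-194-5p in SCN against hypothalamus and cortex passed. So did the rise of miR-122-5p in SCN against cortex. The fall of miR-194-5p in VIP against CCK neurons passed too, but with VIP at 0 throughout this adds no separate support. miR-194-5p gave none in the CCK comparisons without either CCK library, and miR-122-5p none at a minimum of 500 (50 CPM), in some neuron fits without VIP replicate 2 or CCK replicate 1, or in the fits of AVP with 1 other type alone; nor did miR-192-5p at CT18 at that minimum, since they fell under the filter. The causes of the changes below were not tested.

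Median-ratio scaling moved the median of all miRNAs by 0.26 log2 units in SCN against hypothalamus, -0.16 against cortex, -0.42 in hypothalamus against cortex, -0.64, 0.17 and 0.82 in AVP against VIP, AVP against CCK and VIP against CCK, and -0.08 in LP against CTRL. Under it, hypothalamus against cortex gave -0.21 for miR-192-5p, -0.42 for miR-194-5p and 0.99 for miR-122-5p (no longer past the threshold), and AVP against VIP gave -0.056 for miR-192-5p. Under quantile normalization miR-122-5p passed in SCN against hypothalamus (1.0) and did not in hypothalamus against cortex (0.50), miR-194-5p was -0.27 in hypothalamus against cortex, miR-192-5p was 0.17 in AVP against CCK and -0.013 in LP against CTRL, and miR-194-5p was -8.15 in AVP against CCK, no longer past the threshold. That normalization also left 56 miRNAs past the threshold between VIP and CCK, against 91 in the reported fit.

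Leaving out 1 library at a time gave, in hypothalamus against cortex, -0.13 to 0.13 for miR-194-5p and 1.06 to 1.76 for miR-122-5p. It gave -0.0036 to 1.19 for miR-192-5p in AVP against VIP, -0.83 to 0.36 in AVP against CCK and -0.20 to 0.47 in LP against CTRL, and -2.18 to 1.48 for miR-122-5p in VIP against CCK. Counts past the threshold ran from 0 to 69 in AVP against CCK (51 with all libraries), from 1 to 65 in VIP against CCK and from 0 to 21 in LP against CTRL; where an arm keeps 1 library, it is assumed to vary like the other groups.

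Groups share 2 replicate numbers, which nothing in the labels ties to an animal or batch, and deviations of same-numbered libraries correlated from -0.0891 to 0.25 across miRNAs. With the number as a replicate block, 46 miRNAs passed between VIP and CCK, and no call of a member changed. edgeR and DESeq2, planned for counts, were not run, since the files hold normalized values. Depth limits miR-122-5p most, at 0 to 25 reads in CCK, AVP and CT18 libraries, and the 3p arms, at no more than 8 reads a library.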
